A study of Mus musculus with 13 samples.

Results

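The genes described here encode the translation initiation factors, the proteins that bring the initiator tRNA, the small ribosomal subunit and the mRNA together at the start codon. They were taken as the rows of a deposited gene-level table whose symbol begins with Eif followed by a digit from 1 to 6, leaving out the Argonaute genes (Eif2c), the eIF2 kinases (Eif2ak), the eIF4E-binding proteins (Eif4ebp) and Eif4enif1, which carry related names. This gave 46 of 23236 rows. The rule used gene names only and no measured value, but it was set with earlier results of these data known.

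The cells were C2C12, an established mouse myoblast line that can be kept dividing in serum-rich medium or made to form myotubes. Of the 13 samples in the series, 2 were used, an RNA-seq library labelled siNC and an RNA-seq library labelled siLinc-Yy1, both labelled myoblast and both selected for polyadenylated RNA. By the usual reading of such names, siNC is a control siRNA and siLinc-Yy1 an siRNA against Linc-Yy1, a long noncoding RNA encoded beside the transcription factor gene Yy1. ChIP-seq and the other RNA-seq libraries of the series (GM, DM) were not analysed here. Each condition had 1 library, so no value below has a replicate error, no p-value was computed, and every difference describes a pair of libraries.

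Initiation in mammalian cells begins when eIF2, loaded with GTP and initiator tRNA, joins the small ribosomal subunit together with eIF1, eIF1A, eIF3 and eIF5. The mRNA is recruited by the eIF4 group, in which eIF4E binds the cap, eIF4G is the scaffold and eIF4A is the RNA helicase, helped by eIF4B and eIF4H. After the start codon is found, eIF2 leaves as its GDP form and is recharged by the exchange factor eIF2B, and eIF5B drives the joining of the large subunit. Control acts mainly on eIF2, through kinases that phosphorylate its alpha subunit and so inhibit eIF2B, and on eIF4E, through the 4E-BP proteins that mask it. In muscle cells both routes link protein synthesis to amino acid supply and growth signals.

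Some initiation factor mRNAs begin with a terminal oligopyrimidine tract, a C followed by an unbroken run of pyrimidines at the cap, through which mTOR signalling and the protein Larp1 control their translation. RefSeq start site sequences (build GRCm38.p6) were matched for 36 of the 46 genes. None was matched for Eif1a, Eif2b3, Eif3e, Eif3h, Eif3i, Eif3j, Eif4e1b, Eif4e3, Eif4g2 or Eif6. A run of at least 6 pyrimidines beginning with C, no more than 2 bases from the RefSeq start, was found in Eif2b5, Eif2s3x, Eif2s3y, Eif3f and Eif4g1. Without Eif2s3y, which stood below 1 FPKM, this is 4 of 35 genes, or 11.4%, against 7.81% of 8218 matched rows of at least 1 FPKM in the table. A gene with several RefSeq starts was counted when any of them matched, among members and other rows alike. The start sites of Eif3f and of the X- and Y-linked gamma subunit genes of eIF2 are shown because they combine such a run with the letters AAGATGG. These letters are part of a motif known for Yy1. They also hold an ATG and lie after the start in these genes, and whether they mark the start codon was not tested. Each line spans 4 bases before the start and 26 from it. Capitals mark AAGATGG and the run from its first C no more than 2 bases from the start; in Eif3f and Eif2s3x the pyrimidines go on before the capitals to the edge of the window, so only part of the run is in capitals.
Eif3f, chr7:108934411-108934440, plus strand: ctCTCTCTCTTTCTCggcAAGATGGcttct
Eif2s3x, chrX:94212626-94212655, minus strand: tttCCTTTTCTCTCCgagcAAGATGGctgg
Eif2s3y, chrY:1010591-1010620, plus strand: agccaCTTCCTTCTTTCgtgagcAAGATGG
For comparison, the same window of Eif2s2, the gene farthest above genes of its own level in the results below, holds neither feature.
Eif2s2, chr2:154892881-154892910, minus strand: ggctttactgtacgcctgcgctttggcgag

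Short motifs were searched on both strands of the whole windows, from 250 bases before the start to 50 after it. AAGATGG was present in 6 of the 36 genes (Eif2s3x, Eif2s3y, Eif3f, Eif4a1, Eif4e and Eif5a). Among those of at least 1 FPKM it was present in 5 of 35, or 14.3%, against 8.49% of the matched rows. In Eif5a it was in 1 of 6 start windows and in Eif4e in 1 of 2. The E-box CACGTG, bound by Myc and related factors, was present in 10 of the 35 (28.6%) against 12% of those rows, and in Eif5a in 3 of the 6 windows, none of them the one with AAGATGG. TGATGNAA, a shortened form of the element read by ATF4 with C/EBP factors, was present in Eif2s3x alone (2.86% against 2.73%). No motif contains another, and a match describes the sequence and not a bound site. The region before the start of Eif4a1 is shown because it holds an E-box and AAGATGG, in capitals, in the gene with the highest level of the eIF4 group.
Eif4a1, chr11:69672424-69672673, minus strand: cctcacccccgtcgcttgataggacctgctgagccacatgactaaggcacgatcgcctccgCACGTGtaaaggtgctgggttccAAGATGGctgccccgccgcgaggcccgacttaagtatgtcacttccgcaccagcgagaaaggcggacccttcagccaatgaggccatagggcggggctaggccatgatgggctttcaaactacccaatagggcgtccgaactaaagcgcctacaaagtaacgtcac

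Some facts of the whole table bear on every value. The targeted row lincYy1 measured 0.360 FPKM (fragments per kilobase of transcript and per unit of library size) with siNC and 0.227 FPKM with siLinc-Yy1, and Yy1 itself 28.6 and 30.9 FPKM. Pairs of values are given in this order throughout. The lincYy1 row had a mean below 1 FPKM, the filter used below, and was not called in the authors' deposited table (Cuffdiff p = 0.179, q = 0.878). These values therefore do not establish a knockdown. All 8 myoblast markers examined, among them Myod1 and Des, lay between 18.8 and 322 FPKM in siNC and between 19.4 and 487 FPKM in siLinc-Yy1. Of 10 markers of other cell types, 8 were below 1 FPKM in siNC, including Ptprc, Pecam1, Epcam and Alb. The exceptions were Tubb3 (117 and 152 FPKM) and Cd68 (4.48 and 4.43 FPKM), and the summed level of the 10 was 122 and 157 FPKM, whose part in the results was not tested. The low FPKM values of single-exon receptor rows step by about 1 fragment, which puts the depth of siNC at 59.6 M fragments or more and that of siLinc-Yy1 at 42.6 M or more if no further scaling was applied. A member at the median level of 79.2 FPKM in siNC then rests on about 4720 fragments per kilobase, a counting error of 1.5%, and Eif5a2, the lowest above the filter, on 229 fragments per kilobase, an error of 6.6%. These errors cover counting only.

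Of the 46 rows, 43 had a mean of at least 1 FPKM over both libraries. Eif2s3y stood at 0.0813 and 0.0252 FPKM, and Eif4e1b, a form of eIF4E known from oocytes, at 0.423 and 0.409 FPKM. The row of Eif3j, which the table merges with Gm9781, was near 0 (0.00165 and 0.00100 FPKM), while a separate row named Gm9781 at the same locus held 33.5 and 32.6 FPKM. The merged row had the Cuffdiff status LOWDATA and shares its locus with the row of Gm9781, so the level of Eif3j could not be read. Levels of the other 43 ran from 3.84 FPKM (Eif5a2) to 369 FPKM (Eif5a) in siNC and from 3.37 to 616 FPKM in siLinc-Yy1, with the same genes at both ends. Among members, the order from the top was Eif5a, Eif4a1 and Eif3h in both libraries.

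**Figure D1:**
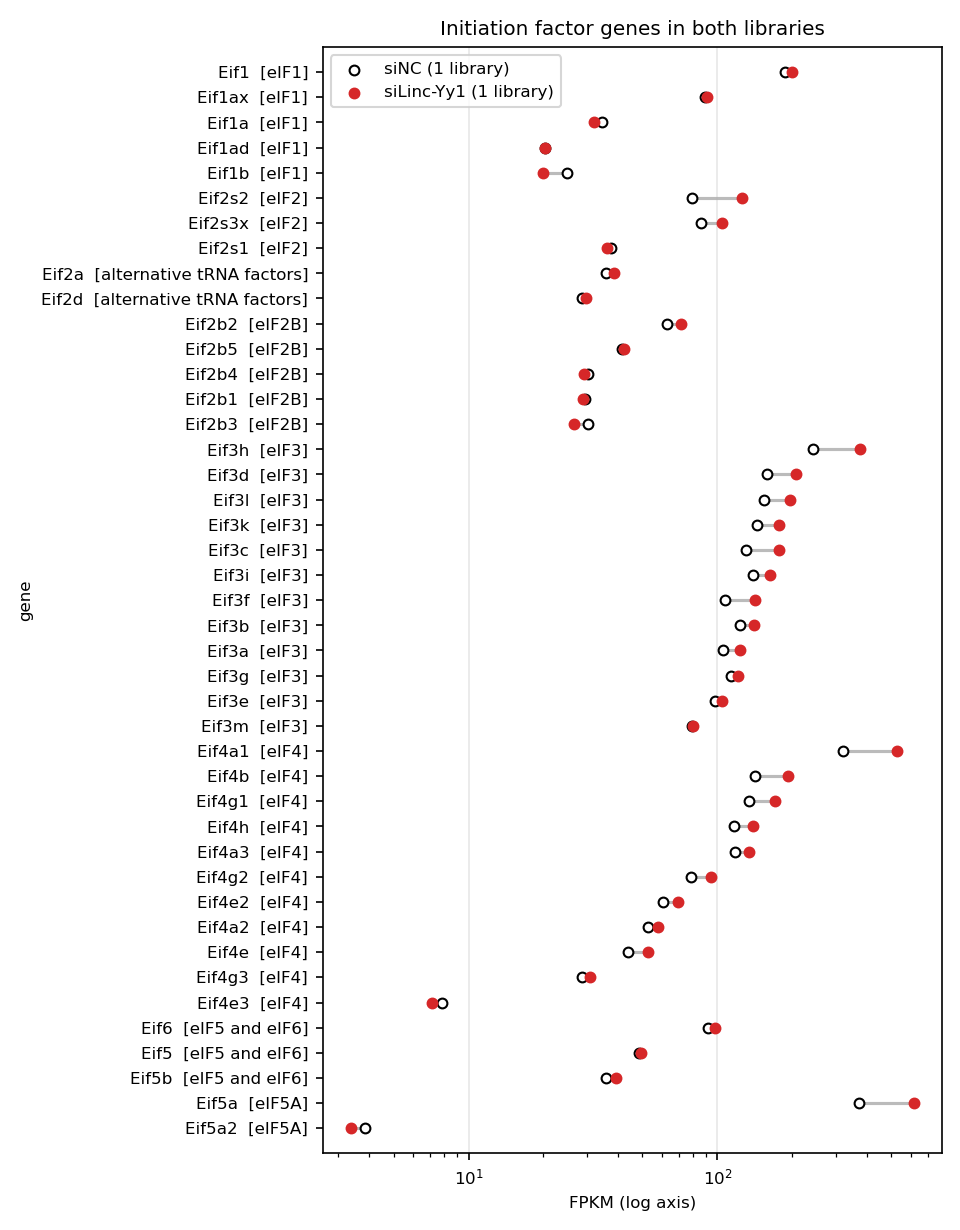
FPKM (log axis) of the 43 initiation factor genes of at least 1 FPKM, grouped by complex, in the siNC library (open points) and the siLinc-Yy1 library (red points), 1 library each. The eIF3 points lie between 79.1 and 374 FPKM, the eIF2B points between 26.5 and 71.7 FPKM, and the widest gaps are those of Eif5a, Eif4a1, Eif2s2 and Eif3h.

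A change below is the log2 ratio of the siLinc-Yy1 value to the siNC value, after adding 1 FPKM to both. The 43 genes had a median change of 0.13 at the deposited scaling, against -0.02 for all 11792 rows of at least 1 FPKM, and 34 lay above 0 and 9 below, where 54.6% of all rows lay below. After rescaling so that both libraries had the same summed FPKM, the median of all rows moved by -0.28 to -0.30, and the median of the initiation factors turned to -0.18, with 10 above 0 and 33 below, where 91.4% of all rows lay below. Relative to the median of all rows the initiation factors stood at 0.15 as deposited and 0.12 after rescaling, and 35 and 34 of the 43 lay above that median. Rescaling multiplies a whole library by the same factor, so the second of these comparisons largely repeats the first and is no separate support.

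A ratio of 1.5-fold or more in favour of siLinc-Yy1 was reached by 4 of the 43 genes (9.30%), Eif5a, Eif4a1, Eif2s2 and Eif3h, against 3.28% of all rows. None was 1.5-fold lower, against 0.517% of all rows, and none 2-fold higher, against 1.39%. The next in order was Eif4b, at a log2 change of 0.43, and the lowest was Eif1b, at -0.30. Abundant rows of the whole table were higher in siLinc-Yy1, so the share meeting this rule rose with level, from 4.25% of 447 rows of 100 to 200 FPKM to 25.1% of 175 rows of 200 to 400 FPKM and 83.1% of 83 rows of 400 to 800 FPKM. Eif5a and Eif4a1 fell in the highest of these classes and Eif3h in the middle one, where their changes of 0.74, 0.71 and 0.63 stood beside class medians of 0.74 and 0.46. Eif2s2 fell in the class of 100 to 200 FPKM, whose median was 0.29. Across the 43 genes the change followed the mean level (Spearman rho = 0.81, Pearson r = 0.80), with 0.47 and 0.36 across all 11792 rows. Genes are not independent replicates and the mean shares its error with the change. The sets also span unlike levels, so their correlations are not comparable. Of all rows, 4776 lay at 1 to 10 FPKM and 5254 at 10 to 50 FPKM, against 2 and 14 members. In these classes the medians of all rows were nearly flat, at -0.09 and -0.01.

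To compare genes of like level, the running median of the change, over each row and the 300 nearest to it in mean FPKM, was subtracted. The 43 genes then had a median of -0.01, with 20 above 0, 22 below and Eif3l at 0, and none reached 1.5-fold above the running median, against 2.14% of all rows. The values lay between -0.31 (Eif1b) and 0.43 (Eif2s2). Near the top of the scale the window reaches over less abundant rows, so differences there tend to come out too high.

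**Figure D2:**
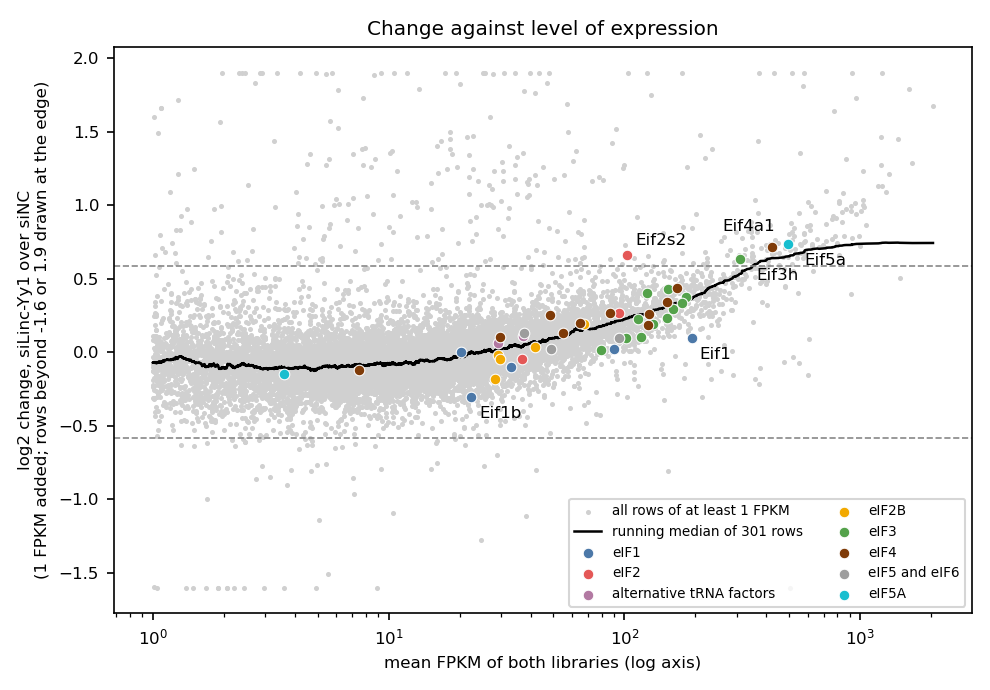
Log2 change of siLinc-Yy1 over siNC against mean FPKM (log axis) for all 11792 rows of at least 1 FPKM (grey), the running median over neighbouring rows (black line) and the 43 initiation factor genes (coloured by group); dashed lines mark 1.5-fold. Most coloured points follow the black line, Eif2s2 lies 0.43 above it, and Eif1 and Eif1b lie 0.27 and 0.31 below it.

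Within eIF2, the trimer that carries initiator tRNA, the subunits differed in how far apart the libraries stood. Eif2s2, the beta subunit (mm9, chromosome 2, 154697146 to 154718642), stood at 79.2 FPKM in siNC against 126 FPKM, 1.59 times as high, in siLinc-Yy1. Eif2s3x, the X-linked GTP-binding gamma subunit, measured 86.3 and 104 FPKM. Eif2s1, the alpha subunit that stress kinases phosphorylate, measured 37.3 and 36.1 FPKM and so was the lowest of the trimer in both libraries. The level of the beta subunit per alpha subunit went from 2.12 in siNC to 3.48 in siLinc-Yy1, and that of gamma per alpha from 2.32 to 2.88. Such ratios do not depend on the scaling between libraries but still carry the trend with level. The running median stood at 0.23 for Eif2s2, 0.21 for Eif2s3x and 0.04 for Eif2s1. Less the running median, their changes were 0.43, 0.05 and -0.08. Of the 300 rows nearest to Eif2s2 in mean FPKM, 7 had a larger change. Eif2s2 was the highest of the 43 genes less the running median, so this place is that of a picked extreme. In the authors' deposited table Eif2s2 had a p-value of 0.00537 and a q-value of 0.173 and was not called.

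The median change of the eIF2 genes past the filter was 0.27 as deposited, -0.05 at equal summed FPKM and 0.05 less the running median. Eif2a and Eif2d, which can deliver initiator tRNA without eIF2, were close in both libraries. Eif2a, whose locus in the table also holds Serp1, measured 35.6 and 38.6 FPKM, and Eif2d 28.5 and 29.7 FPKM.

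The 5 genes of eIF2B, the exchange factor that reloads eIF2 with GTP, differed little between the libraries. Their levels spanned 2.13-fold in siNC and 2.71-fold in siLinc-Yy1. Eif2b5, the catalytic epsilon subunit, measured 41.2 and 42.3 FPKM. Eif2b3, the gamma subunit that pairs with it, measured 30.1 and 26.5 FPKM, the largest difference downward of the group (-0.18). The regulatory subunits Eif2b1, Eif2b2 and Eif2b4, which sense phosphorylated eIF2, stood at 29.4 and 28.9, 62.6 and 71.7, and 30.1 and 29.2 FPKM. Eif2b2 was thus the highest of the 5 in both libraries and the one with the largest difference upward (0.19). The group median was -0.02 as deposited, -0.33 at equal summed FPKM and -0.04 less the running median, and relative to all rows it was -0.00076 and -0.03 under the first and second of these.

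All 12 measurable subunit genes of eIF3, the large scaffold that binds the small ribosomal subunit, were higher in siLinc-Yy1 at the deposited scaling, whereas 5 were above 0 and 7 below at equal summed FPKM. Relative to the median of all rows all 12 were higher as deposited and, in a comparison that largely repeats this, at equal summed FPKM. Their median was 0.26 as deposited and -0.06 at equal summed FPKM, or 0.28 and 0.24 relative to all rows. Less the running median it was -0.03, with 4 above 0, 7 below and Eif3l at 0, so that the group did not stand above rows of its own level. Summed over the subunits, eIF3 measured 1594 and 2004 FPKM, a ratio of 1.26, close to the ratio of 1.25 between the summed FPKM of all rows.

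The subunits of eIF3 were not equal in level. In siNC they spanned 3.05-fold, from 79.1 FPKM (Eif3m) to 241 FPKM (Eif3h), and in siLinc-Yy1 4.68-fold, from 80.1 to 374 FPKM, with the same genes at both ends. Eif3h (chromosome 15, 51618109 to 51697007) stood above the others, of which the next highest, Eif3d, a subunit that can itself contact the cap of some mRNAs, measured 159 and 206 FPKM. Eif3h had a p-value of 0.0235 and a q-value of 0.402 in the authors' deposited table. The level of Eif3h per Eif3m went from 3.05 to 4.68 and that of Eif3h per Eif3e from 2.46 to 3.58. These ratios carry the trend with level, since the running median stood at 0.53 for Eif3h, 0.18 for Eif3m and 0.23 for Eif3e. Less the running median, their changes were 0.10, -0.16 and -0.13.

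The 8 subunits of the structural core of eIF3 (a, c, e, f, h, k, l and m) had a median change of 0.31 as deposited, and the peripheral subunits b, d, g and i one of 0.21. Less the running median these were -0.01 and -0.09. Of the core, Eif3c measured 130 and 176 FPKM, Eif3f 107 and 142 FPKM, Eif3l 154 and 195 FPKM, Eif3k 144 and 176 FPKM and Eif3a, the largest subunit, 106 and 124 FPKM. Eif3e (97.9 and 105 FPKM) and Eif3m differed least. Less the running median, Eif3f (0.14) and Eif3c (0.11) were the highest and Eif3m (-0.16), whose locus also holds Ccdc73, the lowest. Of the peripheral subunits, Eif3i measured 139 and 163 FPKM, Eif3b 123 and 141 FPKM and Eif3g, which touches the mRNA, 113 and 121 FPKM.

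Of the eIF4 genes, which bind the cap and open the mRNA, 10 of 11 past the filter were higher in siLinc-Yy1 as deposited and 3 of 11 at equal summed FPKM. Relative to the median of all rows 10 were higher as deposited and, in a comparison that largely repeats this, at equal summed FPKM. The group median was 0.25 as deposited, -0.06 at equal summed FPKM and 0.05 less the running median, with 8 above 0 and 3 below in the last.

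Eif4a1, the main helicase gene (chromosome 11, 69480438 to 69485925), measured 320 and 526 FPKM. Its close paralog Eif4a2, which can take its place in the cap-binding complex, measured 52.4 and 57.6 FPKM. Eif4a1 therefore made up 85.9% of the summed level of both genes in siNC and 90.1% in siLinc-Yy1, a difference of 4.20 percentage points that scaling between the libraries does not touch. Subtracting the running median from each gene left 0.43 points. Reads from near-identical stretches had to be divided between the paralogs by the authors' estimate, and the locus of Eif4a2 in the table also holds Rfc4, Snora81 and Snord2. Eif4a3, the helicase of the exon junction complex rather than of the cap, measured 118 and 134 FPKM.

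The cofactors of the helicase, Eif4b and Eif4h, measured 142 and 192 FPKM and 116 and 139 FPKM. The scaffold Eif4g1 measured 134 and 170 FPKM, its paralog Eif4g3 28.5 and 30.7 FPKM, and Eif4g2, a relative that does not bind eIF4E, 78.5 and 94.6 FPKM. The cap-binding protein Eif4e measured 43.8 and 52.4 FPKM, below Eif4e2 (60.5 and 69.6 FPKM), a form known from translational repression. Eif4e3 was scarce, at 7.82 and 7.12 FPKM, and was the only one of the 11 past the filter that was lower in siLinc-Yy1 as deposited. Eif4g1 per Eif4e was 3.05 in siNC and 3.24 in siLinc-Yy1, and Eif4e held 38.9% and 40.5% of the eIF4E family. Less the running median, Eif4g1 stood at 0.02 and Eif4e at 0.16.

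The eIF1 and eIF1A genes lay below rows of their own level, apart from Eif1ad, which was grouped with them by symbol. Eif1, which keeps the scanning ribosome open until the start codon is met, measured 186 and 199 FPKM, a change of 0.09 where the running median stood at 0.36. Of the 300 rows nearest to it in level, 288 had a larger change. Its paralog Eif1b measured 24.9 and 19.99 FPKM, with 294 of 300 nearest rows above it. Eif1b was the lowest of the 43 genes less the running median, so its place too is that of a picked extreme. The eIF1A genes Eif1ax and Eif1a measured 89.5 and 90.8 FPKM and 34.3 and 32.0 FPKM, and Eif1ad, which carries an eIF1A-like domain, 20.3 FPKM in both. Eif1ax held 72.3% and 73.9% of the summed level of the eIF1A pair. Less the running median, Eif1ax stood at -0.18 and Eif1a at -0.14. The group median of these 5 genes was -0.00043 as deposited, -0.31 at equal summed FPKM and -0.18 less the running median, with 4 of the 5 below 0 in the last.

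Eif5 and the factors of subunit joining were likewise close in both libraries. Eif5, which triggers GTP hydrolysis by eIF2, measured 48.6 and 49.3 FPKM, and Eif5b, the GTPase of subunit joining, 35.6 and 39.1 FPKM. Eif6, which keeps the large subunit from joining too early, measured 91.5 and 98.0 FPKM. Less the running median, Eif6 stood at -0.12, Eif5 at -0.07 and Eif5b at 0.08.

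Eif5a, named as an initiation factor but best known for helping the ribosome through difficult peptide bonds with the aid of its hypusine residue, was the most abundant member. Its row (chromosome 11, 69730214 to 69735460) held 369 and 616 FPKM, a ratio of 1.67, with a q-value of 0.720 in the authors' deposited table. Its paralog Eif5a2 measured 3.84 and 3.37 FPKM, so that Eif5a held 99.0% and 99.5% of their sum. The change of Eif5a was 0.08 less the running median.

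**Figure D3:**
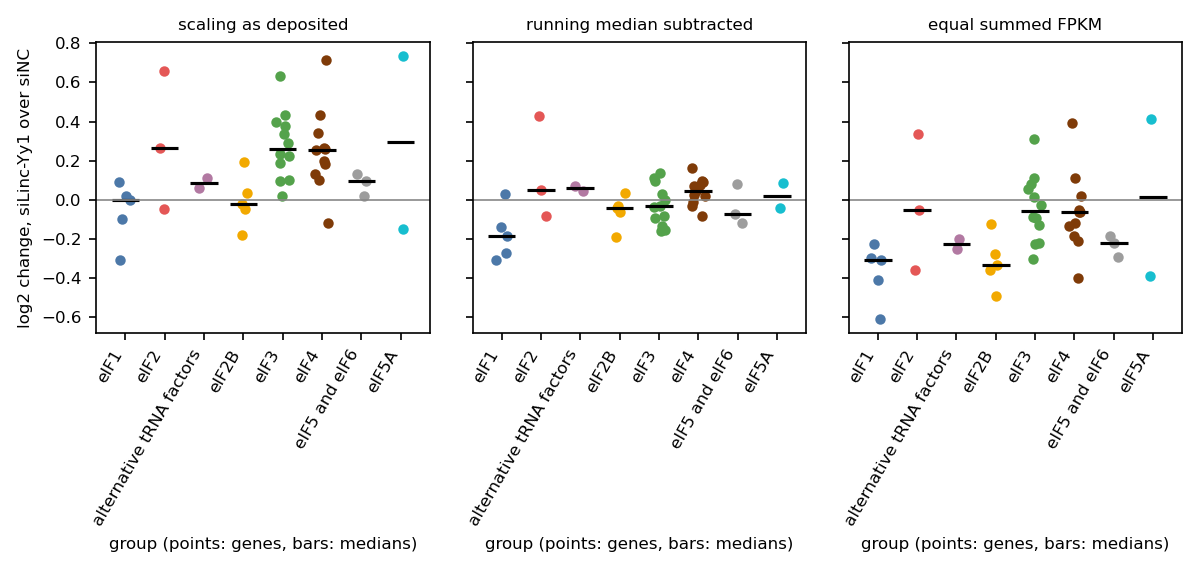
Log2 change of siLinc-Yy1 over siNC for each of the 43 genes (points) and the median of each group (bars), at the deposited scaling (left), less the running median over level (middle) and at equal summed FPKM (right). The eIF3 and eIF4 medians stand at 0.26 and 0.25 on the left, at -0.03 and 0.05 in the middle and at -0.06 and -0.06 on the right, and Eif2s2 is the highest point of the middle panel.

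None of the 46 initiation factor genes was called by Cuffdiff in the authors' deposited table, against 1.29% of 14366 rows with status OK called higher and 0.327% called lower. Its unadjusted p-value was under 0.05 for 2 of the 43, Eif2s2 and Eif3h, against 7.09% of the 11792 rows, so this count was no higher than the background. In that table the calls come from the same pair of libraries.

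The start site features were set beside these values. The 4 measurable genes with a pyrimidine run at the start had a median change of 0.30, and the 31 others with a sequence one of 0.13. Over all matched rows of the table the medians with and without a run were both near 0 (-0.01 and -0.02). For AAGATGG the medians were 0.40 over 5 members with it and 0.12 over 30 without, for CACGTG 0.28 over 10 and 0.11 over 25, and over all matched rows with each of these motifs -0.00360 and -0.01. Members with the motifs include abundant genes such as Eif4a1 and Eif5a. Less the running median, the changes of members with a pyrimidine run lay between -0.03 (Eif2b5) and 0.14 (Eif3f). Those with AAGATGG lay between 0.05 (Eif2s3x) and 0.16 (Eif4e), and those with CACGTG between -0.31 (Eif1b) and 0.16 (Eif4e). The part of level in these medians was not tested.

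The regulators of initiation formed a list of 45 genes, all of which passed the filter. Of them 22 were above 0 and 23 below as deposited, with a median of -0.01 against -0.02 for all rows, and -0.31 at equal summed FPKM. At least 1.5-fold higher were 4 of the 45, or 8.89%, against the same 3.28% of all rows: Atf4, Eif4ebp1, Pabpc1 and Ddit3. None was 1.5-fold lower. The list was made with earlier results of these data known, so its share is a description only. Atf4 and Ddit3 are on it as transcription factors downstream of eIF2 phosphorylation. Less the running median, Ddit3 alone was 1.5-fold higher, 1 of 45 against 2.14% of all rows, which is the background share. The locus of Ddit3 in the table also holds Mars (55.2 and 70.7 FPKM), and without rows that share a locus 3 regulators were 1.5-fold higher as deposited.

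The 4E-BP genes, whose products mask eIF4E, were split. Eif4ebp1 (chromosome 8, 28370799 to 28386128) measured 105 and 185 FPKM, a change of 0.81, or 0.52 less the running median. Of the 300 rows nearest to it in level 5 had a larger change. It was the 1 gene of the 45 on the list that the authors' deposited table called, with a Cuffdiff q-value of 0.00293. Of 14366 rows with status OK, 1.29% were called higher, so 1 of 45 is near that background. Eif4ebp2 measured 41.4 and 40.0 FPKM and Eif4ebp3 9.63 and 8.52 FPKM. The level of Eif4ebp1 per Eif4e went from 2.39 to 3.53, and that of Eif4ebp1 per Eif4ebp2 from 2.53 to 4.62. Less the running median, Eif4e stood at 0.16 and Eif4ebp2 at -0.11, beside 0.52 for Eif4ebp1. Eif4enif1, which carries eIF4E into the nucleus, measured 28.8 and 28.0 FPKM.

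Of the 4 kinases of eIF2, 3 were lower in siLinc-Yy1 as deposited and all 4 at equal summed FPKM, against 54.6% and 91.4% of all rows. Eif2ak4 (GCN2, which senses uncharged tRNA), the exception, stood at 10.1 and 10.49 FPKM. Eif2ak3 (PERK, the kinase of the endoplasmic reticulum) measured 9.25 and 6.93 FPKM, with a q-value of 0.397 in the authors' deposited table. Its change of -0.37 was the lowest of the whole list as deposited, and it was -0.28 less the running median. Eif2ak2 (PKR, activated by double-stranded RNA) measured 32.1 and 27.9 FPKM and Eif2ak1 (HRI) 17.8 and 15.7 FPKM. The phosphatase subunits that reverse their action, Ppp1r15a and Ppp1r15b, measured 20.7 and 23.1 FPKM and 16.7 and 17.9 FPKM.

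Downstream of eIF2 phosphorylation, the transcription factors Atf4 and Ddit3 (CHOP) measured 138 and 249 FPKM and 47.5 and 83.4 FPKM, or 0.48 and 0.65 less the running median. Their q-values in the authors' deposited table were 0.0787 and 0.750, so neither was called. Pabpc1, the poly(A)-binding protein that contacts eIF4G, measured 364 and 636 FPKM, a change of 0.80 and of 0.15 less the running median. Pabpc4 measured 68.4 and 61.0 FPKM, a change of -0.16 and of -0.31 less the running median, the lowest of the list by the latter measure. The initiation factors of mitochondria, Mtif2 and Mtif3, measured 9.52 and 8.86 FPKM and 3.72 and 3.25 FPKM.

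**Figure D4:**
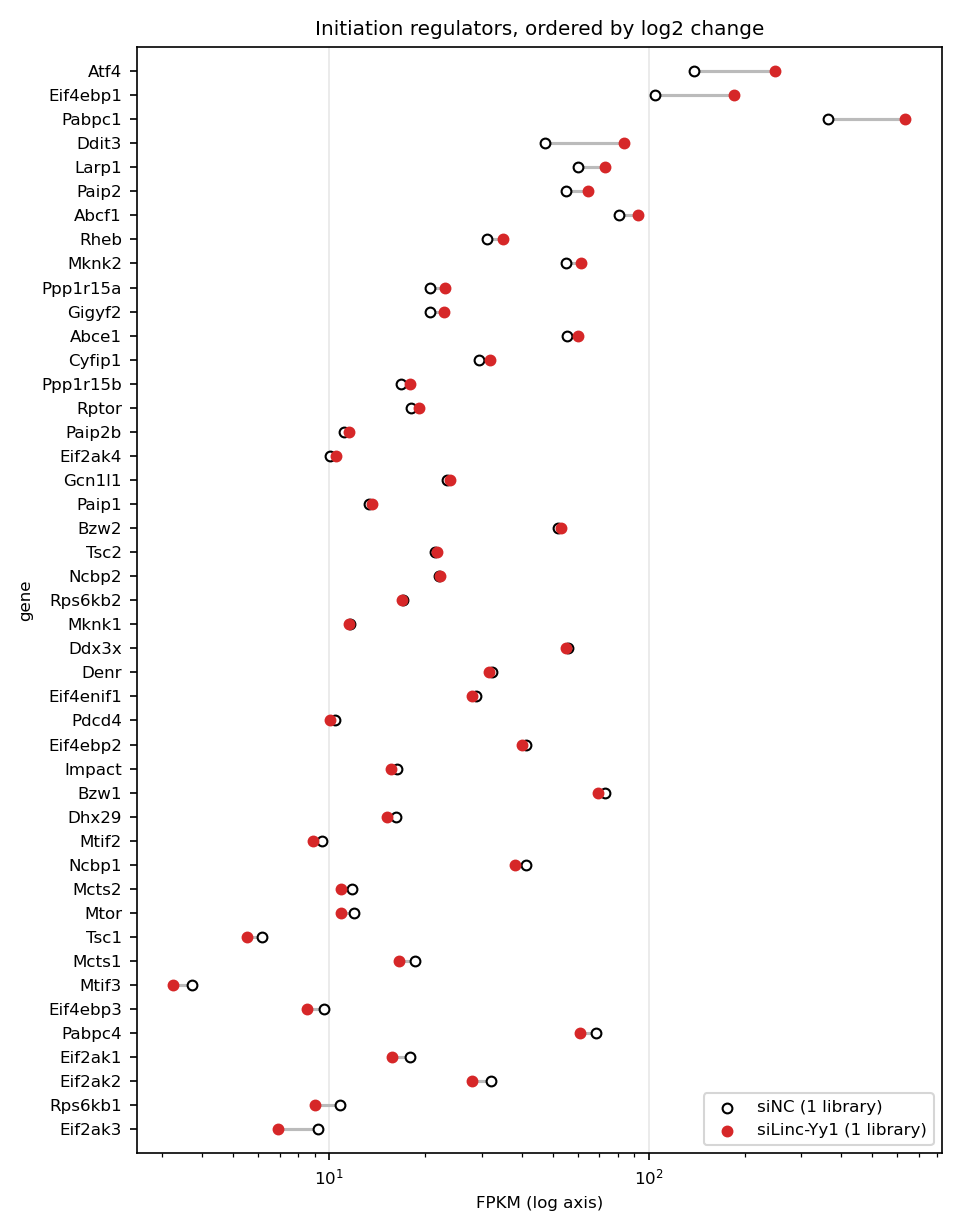
FPKM (log axis) of the 45 regulators of initiation in the siNC library (open points) and the siLinc-Yy1 library (red points), 1 library each, ordered from the highest to the lowest log2 change. Atf4, Eif4ebp1, Pabpc1 and Ddit3 stand apart at the top with changes of 0.80 to 0.84, and Eif2ak3 is at the bottom with -0.37.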

How the data were processed

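RNA-seq of C2C12 myoblasts was available as 1 gene-level Cuffdiff table, deposited as 2 identical copies and read once. The FPKM values and the p-values and q-values of the test between both libraries were made by the authors, per the file headers. Named in the submitters' processing notes are the mouse build mm9, Cuffdiff 2.0.4, Cufflinks 2.1.1 and TopHat2 2.0.4. Scaling between libraries, strand use and the gene annotation: not given in the sources used here. The first FPKM column was read as siNC and the second as siLinc-Yy1, in the order of the header.

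Rows with a mean of at least 1 FPKM were kept, 1 FPKM was added, and a gene counted as higher or lower at 1.5-fold. No replicate exists, so no test was run. The running median was taken over each row and the 300 nearest in mean FPKM (150 on each side, fewer at the top of the scale). Of the 46 members, 9 share a locus with another row. Of the single-exon receptor rows used for depth, 65.6% of 523 (siNC) and 60.8% of 398 (siLinc-Yy1) were whole multiples of 1 fragment within 0.02, too few for a count test, and locus length was taken as transcript length, which makes the depth a lower limit. Members, lists and rules were chosen with earlier results of these data known. All members could be named; regulators were named by role, at 1.5-fold or when called by the authors. Calculations used Python 3.11.15, numpy 2.4.6 and pandas 2.3.3. The running median and size rule were run on simulated data with planted log2 changes of 1.5. No member changed that far, so the simulation does not test changes of the size described here.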

Additional observations from a re-analysis of the deposited data

How the results depend on the processing

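Medians and counts were recomputed with pseudocounts of 0.1 and 5 FPKM, without a filter, with a mean of at least 5 FPKM, at equal summed FPKM, centred on the median, less the running median, over rows of status OK and over rows with a locus of their own. The scaling and the level of expression moved the results most. At equal summed FPKM the medians became -0.0538 (eIF2), -0.33 (eIF2B), -0.0580 (eIF3), -0.0626 (eIF4), -0.18 (all initiation factors) and -0.31 (regulators), since this step lowers every row. Then 0 initiation factors and 0 regulators were 1.5-fold higher, and 1 of each, Eif1b and Eif2ak3, was 1.5-fold lower. At this scaling 91.4% of all rows lay below 0, and the share of all rows 1.5-fold lower was not computed. These counts therefore do not single out the genes. Less the running median, the medians were 0.0505 (eIF2), -0.0326 (eIF3), 0.0468 (eIF4), -0.0084 (all initiation factors) and 0.0065 (regulators), 0 initiation factors and 1 regulator were 1.5-fold higher, and the Eif4a1 share differed by 0.43 points. Without a filter the eIF2 median was 0.11, because Eif2s3y then enters. The regulator median, -0.01 as reported, also crossed 0 among rows of at least 5 FPKM (0.0029) and after centring (0.0128). At a fold of 2, 0 genes of either list were higher, against 1.39% of all rows. The authors' deposited table, made with Cuffdiff, called 0 initiation factors and 1 regulator higher, against 1.29% of 14366 rows with status OK. Its unadjusted p-value was under 0.05 for 2 and 3 genes, against 7.09% of all rows. The other settings left each median within 0.1 and each count within 1.5 times of its reported value. Leaving out a replicate was not possible with 1 library per condition. No paired analysis was possible because each condition has 1 library.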

Other observations

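Several initiation factor genes share their locus in the table with other rows, of which 6 are small RNAs and 6 other genes. Snord66, in Eif4g1, stood at 14.4 FPKM in the siNC library and 65.4 FPKM in the other, while Eif4g1 itself had a ratio of 1.27. Snora81 and Snord2, in Eif4a2, measured 21.1 and 28.6 FPKM and 9.87 FPKM and a listed 0. Snora28, in Eif5, measured 9.31 and 13.5 FPKM, and Snora19, in Eif3a, 3.36 FPKM and a listed 0. Mir1956, at the locus of Eif4e, was listed at 0 in both libraries. Rows this short can pass 1 FPKM with few fragments, and a listed 0 can be a failed estimate.

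The Argonaute genes, which the table names Eif2c1 to Eif2c4 although they serve small RNA silencing and not initiation, were not all alike. Eif2c2, the slicing Argonaute, measured 15.4 and 17.7 FPKM, Eif2c1 10.9 and 11.1 FPKM, Eif2c3 1.57 and 1.80 FPKM and Eif2c4, which was below the filter, 0.522 and 0.359 FPKM.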
